A study of Mus musculus with 23 samples.

Results

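Frrs1l, Phf24 and Rab3b are 3 synaptic genes of mouse chromosome 4. They were chosen by name because each had fewer reads in p16KO than in WT libraries, 3 of 37173 genes in the deposited count table. The table covers the hippocampi of 23 mice of about 5 months, with 1 poly-A library made from each. Libraries 1 to 6 came from wild-type mice (WT), and 7 to 12 from mice with homozygous loss of p16 (p16KO). The other 2 genotypes were the homozygous App knock-in NLGF (AppNLGF, 13 to 17) and both alleles together (AppNLGF_p16KO, 18 to 23). App NLGF is a humanised amyloid precursor gene with familial Alzheimer mutations at its own locus, and p16 is the Cdkn2a product that inhibits the cyclin D kinases. The labels give no sex and do not say which part of Cdkn2a is deleted or in which strain background the alleles are held. All 3 genes passed the count filter, as did 19423 genes in all.

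The 3 proteins act at different points of the synapse. FRRS1L is an endoplasmic reticulum protein that helps to assemble AMPA receptors, the main fast excitatory receptors, before they travel to the membrane, and its loss in humans causes an epileptic encephalopathy. PHF24, also named GINIP, binds inhibitory G protein alpha subunits and tunes signalling from GABA-B receptors, the metabotropic receptors for GABA. RAB3B is a small GTPase of the Rab3 family that sits on synaptic vesicles, regulates release and is needed for a form of long-term depression at hippocampal inhibitory synapses.

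In GRCm38 Phf24 (ENSMUSG00000036062) lies at chr4:42916660-42944752 on the plus strand, Frrs1l (ENSMUSG00000045589) at chr4:56957173-56990391 on the minus strand and Rab3b (ENSMUSG00000003411) at chr4:108879063-108943324 on the plus strand. GENCODE M21 annotates each as protein coding, with 9, 2 and 4 transcripts. Cdkn2a starts at 89274471 on the same chromosome. Phf24 lies 46.4 Mb and Frrs1l 32.3 Mb on one side of it, and Rab3b 19.6 Mb on the other. So the 3 genes are not direct neighbours of Cdkn2a or of each other. An antisense gene, 8030443G20Rik, shares 317 exonic bases with Rab3b, but it averaged 0.74 reads per library and the library kit keeps strand. Of the 50-base words in Rab3b transcripts, 7.7% recurred in that antisense gene and none in Rab3a, Rab3c or Rab3d. The share of words found in any other gene was 0.529% for Frrs1l, and no Phf24 word recurred.

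The 250 bases before each RefSeq start are shown because the 3 genes were lower together and a reader may want to compare their promoters. They are read 5′ to 3′ on the gene's strand from RefSeq sequence of GRCm38.p6. Capitals mark matches on either strand to the GC box GGGCGG, the TATA box TATAAA, the CCAAT box CCAAT and the cyclic AMP response element half-site TGACG.
Frrs1l, chr4:56990392-56990641, minus strand: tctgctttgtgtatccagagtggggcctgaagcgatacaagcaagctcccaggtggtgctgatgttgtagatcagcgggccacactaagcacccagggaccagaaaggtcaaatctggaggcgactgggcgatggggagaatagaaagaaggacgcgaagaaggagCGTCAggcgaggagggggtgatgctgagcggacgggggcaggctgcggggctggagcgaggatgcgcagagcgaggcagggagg
Phf24, upstream start, chr4:42916356-42916605, plus strand: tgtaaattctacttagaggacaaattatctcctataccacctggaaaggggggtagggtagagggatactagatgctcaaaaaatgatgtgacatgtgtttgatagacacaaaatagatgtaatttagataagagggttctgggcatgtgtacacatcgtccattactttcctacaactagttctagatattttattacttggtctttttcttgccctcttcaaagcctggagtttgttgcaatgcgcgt
Phf24, downstream start, chr4:42916993-42917242, plus strand: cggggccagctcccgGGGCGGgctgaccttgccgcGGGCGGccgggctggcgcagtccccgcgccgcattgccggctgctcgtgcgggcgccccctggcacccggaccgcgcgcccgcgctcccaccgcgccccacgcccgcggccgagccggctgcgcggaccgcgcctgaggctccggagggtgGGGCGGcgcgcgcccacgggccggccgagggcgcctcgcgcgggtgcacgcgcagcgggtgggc
Rab3b, chr4:108878820-108879069, plus strand: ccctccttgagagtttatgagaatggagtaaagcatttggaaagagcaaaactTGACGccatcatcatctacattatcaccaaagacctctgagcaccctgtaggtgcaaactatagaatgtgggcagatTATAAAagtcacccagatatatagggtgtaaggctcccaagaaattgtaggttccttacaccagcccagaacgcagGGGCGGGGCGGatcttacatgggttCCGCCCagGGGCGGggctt

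These windows had little in common. The downstream Phf24 window was 85.6% G and C with 3 GC boxes, and the upstream one was 38.8% with none of the motifs. The Rab3b window held 4 GC boxes, of which a pair overlaps by 1 letter, 1 TATA box and 1 TGACG. The Frrs1l window (61.2% G and C) held 1 TGACG, read on the other strand as CGTCA, and no GC box. Of 32851 windows of the same length, 32.7% held a GC box, 33.8% a CCAAT box, 12.4% a TATA box and 17.8% the TGACG half-site. No motif was shared by all 3 genes. Counts per gene do not tell which Phf24 start was used.

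Before the values, some libraries need naming. Total counts ran from 40693561 to 61178839 reads. Cdkn2a reads numbered 0 to 6 in the WT libraries and 0 to 2 in those labelled p16KO, while AppNLGF had 2 to 9 and AppNLGF_p16KO 0 to 8. So the reads did not check the p16 labels, and p16KO and AppNLGF_p16KO below refer to the labels. Over the 19423 genes, libraries 23 and 21 of AppNLGF_p16KO lay farthest from the median of their own group (median absolute log2 difference 0.25 and 0.20, against 0.10 to 0.17 in the other 21). Library 22, labelled AppNLGF_p16KO, went against its group on another measure. Alad, a haem synthesis gene of chromosome 4 known from earlier results to be high in p16KO, was at 22.8 CPM (counts per 1000000 reads) there. That lies inside the AppNLGF range of 18.3 to 23.4 CPM, while library 23 was at 29.1 and libraries 18 to 21 at 36.5 to 39.9 CPM. The comparison of AppNLGF_p16KO with AppNLGF is therefore also given without single libraries, without libraries 21 and 22, and without libraries 21 and 23. Libraries 22 and 23 were not left out together, and group means, spreads and list medians include every library.

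Frrs1l was the most abundant of the 3 and was lower in p16KO libraries. WT libraries held 517.7 to 572 CPM (median 549) and p16KO libraries 347 to 484 CPM (median 396). AppNLGF libraries 13 to 17 held 526, 558, 460, 508 and 524 CPM. AppNLGF_p16KO libraries ranged from 360.2 to 501 CPM (median 396), and 5 of 6 lay below every AppNLGF library. The exception was library 22, at 501 CPM. In order, the means were 547 ± 18.8 CPM in WT (SD, n = 6), 515 ± 36.0 in AppNLGF (n = 5), 409 ± 49.5 in p16KO (n = 6) and 405 ± 50.8 in AppNLGF_p16KO (n = 6). WT and AppNLGF overlapped, as did p16KO and AppNLGF_p16KO.

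Phf24 showed the same order of genotypes apart from exchanges within each pair. WT libraries held 223 to 269 CPM (median 241), and p16KO libraries 166 to 208 CPM (median 176). AppNLGF libraries 13 to 17 held 229.5, 228, 248, 263 and 261 CPM. AppNLGF_p16KO libraries 18 to 23 held 162, 160.2, 172, 193, 227 and 235 CPM. The last pair, libraries 22 and 23, reached the range of the groups with p16, and the other 4 stayed within or below the p16KO range. Means were 246 ± 16.7 CPM in AppNLGF (SD, n = 5), 243 ± 15.5 in WT (n = 6), 192 ± 32.7 in AppNLGF_p16KO (n = 6) and 180.1 ± 15.4 in p16KO (n = 6).

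Rab3b had the largest difference between p16KO and WT of the 3 genes, and its AppNLGF_p16KO libraries were spread widest. WT libraries held 50.4 to 62.8 CPM (median 56.9) and p16KO libraries 28.9 to 45.9 CPM (median 35.6). AppNLGF libraries 13 to 17 held 55.5, 55.5, 54.0, 51.5 and 60.2 CPM. AppNLGF_p16KO libraries 18 to 23 held 45.4, 36.8, 41.3, 54.9, 69.0 and 47.5 CPM. Library 22 was thus the highest of all 23, libraries 18 to 20 lay within the p16KO range, and libraries 21 and 23 lay above it. Means were 57.2 ± 4.73 CPM in WT (SD, n = 6), 55.4 ± 3.18 in AppNLGF (n = 5), 49.1 ± 11.5 in AppNLGF_p16KO (n = 6) and 35.9 ± 6.18 in p16KO (n = 6).

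**Figure D1:**
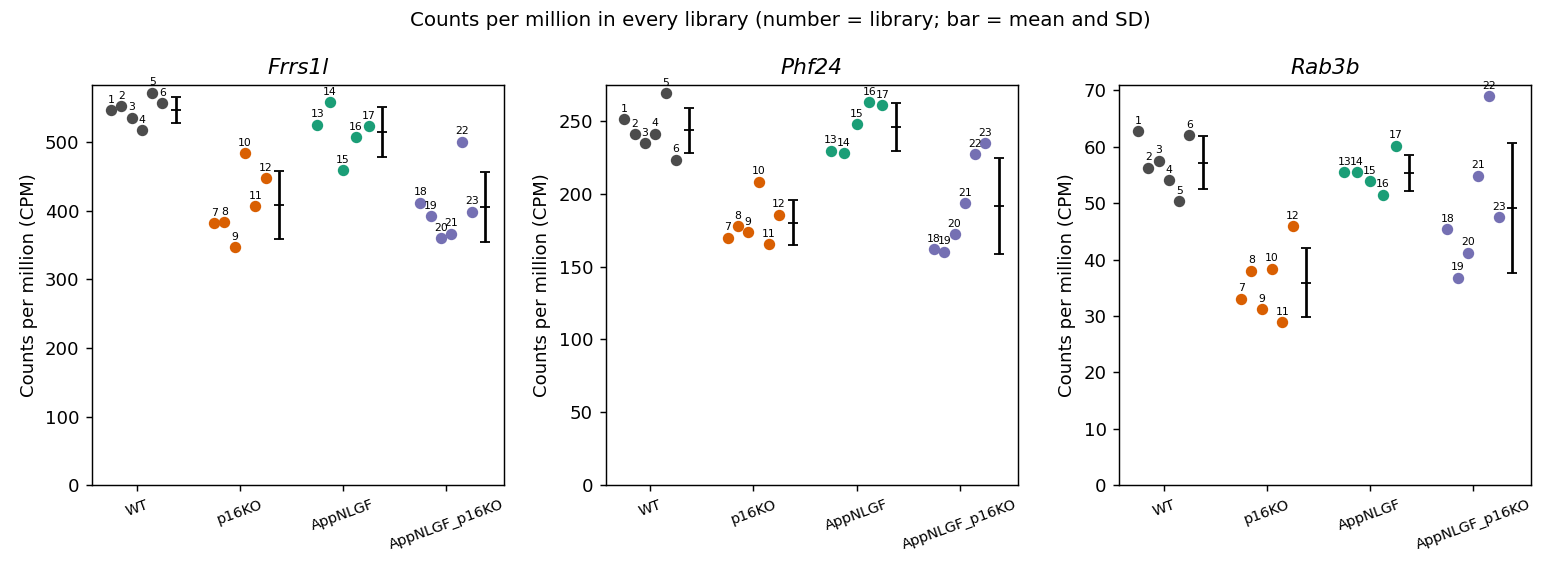
CPM of Frrs1l, Phf24 and Rab3b (y axes, from 0) in each of the 23 libraries by genotype, with the library number at each point and the mean and SD as bars. The p16KO points lie below the WT points in each panel, and AppNLGF_p16KO library 22 is the highest of its group for Frrs1l (501 CPM) and Rab3b (69.0 CPM).

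Levels of different genes can be set side by side per length of annotated exon. In WT, Frrs1l reached 80.2 ± 2.76 CPM per kilobase of merged exon (SD, n = 6), Phf24 34.2 ± 2.18 and Rab3b 16.2 ± 1.34. The ranking was the same in each genotype. The libraries of a genotype also differed from each other by unequal amounts. The coefficient of variation of Frrs1l was 3.44% in WT and 6.98% in AppNLGF, against 12.1% in p16KO and 12.5% in AppNLGF_p16KO. For Rab3b it was 8.27%, 5.74%, 17.2% and 23.3% in the same order. Phf24 varied by 6.38%, 6.78%, 8.56% and 17.1%. These spreads were not tested.

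The comparison of p16KO with WT chose the genes, so its values are a description and support nothing here. Frrs1l was 25.5% lower (log2 -0.43 ± 0.08, SE), Phf24 26.3% lower (log2 -0.44 ± 0.08) and Rab3b 37.4% lower (log2 -0.68 ± 0.12). In each, 6 of 6 p16KO libraries lay below every WT library, an ordering held by 0.541% of genes tested. By edgeR's quasi-likelihood test 9 of 19423 genes (0.0463%) were called lower at an adjusted p under 0.05, and 4 of 1110 on chromosome 4 (0.36%). Single libraries decided these calls too. Without p16KO library 9 edgeR called 0 genes lower, so none of the 3 passed. Without p16KO library 11, or without WT library 2, it called 1 gene lower. Among genes of chromosome 4 that were lower in the main run, the last of the 3 inside the threshold was Phf24 (adjusted p = 0.0242). Trabd2b, of a metalloprotease that acts on Wnt proteins, followed at 0.0485, and the first outside was Cfap74 at 0.0621. The first gene outside from the list of chromosome 4 genes described below was Oprd1, of the delta opioid receptor, at 0.0794 (log2 -0.42 ± 0.11). These p-values were adjusted by the Benjamini-Hochberg method, and 15.8% of genes tested had an unadjusted p under 0.05.

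The comparison of AppNLGF_p16KO with AppNLGF rests on 11 other mice and asks whether the same genes are lower with p16 loss where App carries the NLGF mutations. The choice was read as resting on p16KO against WT, but values of these 11 mice may also have been known when the genes were proposed, so the p-values below are not independent evidence. The 3 genes were lower on average, and none passed the test over all genes. Frrs1l was 20.9% lower in AppNLGF_p16KO than in AppNLGF (log2 -0.34 ± 0.08, 95% interval -0.51 to -0.17, edgeR adjusted p = 0.112), below the AppNLGF mean in 6 of 6 libraries. Phf24 was 21.6% lower (log2 -0.35 ± 0.09, -0.53 to -0.17, edgeR adjusted p = 0.112), below the mean in 6 of 6. Rab3b was 10.7% lower (log2 -0.16 ± 0.12, -0.42 to 0.10, edgeR adjusted p = 0.435), below the mean in 5 of 6. Exact permutation tests of the mean CPM over every split of the 11 libraries, two-sided and not adjusted, gave p = 0.00649 for Frrs1l, 0.0173 for Phf24 and 0.275 for Rab3b, where the smallest possible was 0.00216. edgeR called 6 of 19423 genes (0.0309%) in this comparison and 4570 (23.5%) had an unadjusted p under 0.05. Of genes tested, 0.597% had every AppNLGF_p16KO library below every AppNLGF library, and none of the 3 genes did.

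Single libraries decided whether these differences passed. Without library 22, Frrs1l passed (log2 -0.41, edgeR adjusted p = 0.0195), while Phf24 was at log2 -0.41 (adjusted p = 0.0690). Without library 23, Phf24 (log2 -0.42, edgeR adjusted p = 0.00512) and Frrs1l (log2 -0.33, adjusted p = 0.0104) both passed, but so did 4155 of all genes (21.5%). DESeq2 gave adjusted p = 0.0197 for Frrs1l and 0.0295 for Phf24, with 434 genes called (2.23%). Rab3b did not pass without any 1 library (edgeR adjusted p from 0.149 to 0.685). Its difference was log2 -0.29 ± 0.10 without library 22 and log2 -0.37 ± 0.10 without libraries 21 and 22 (edgeR adjusted p = 0.400).

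**Figure D2:**
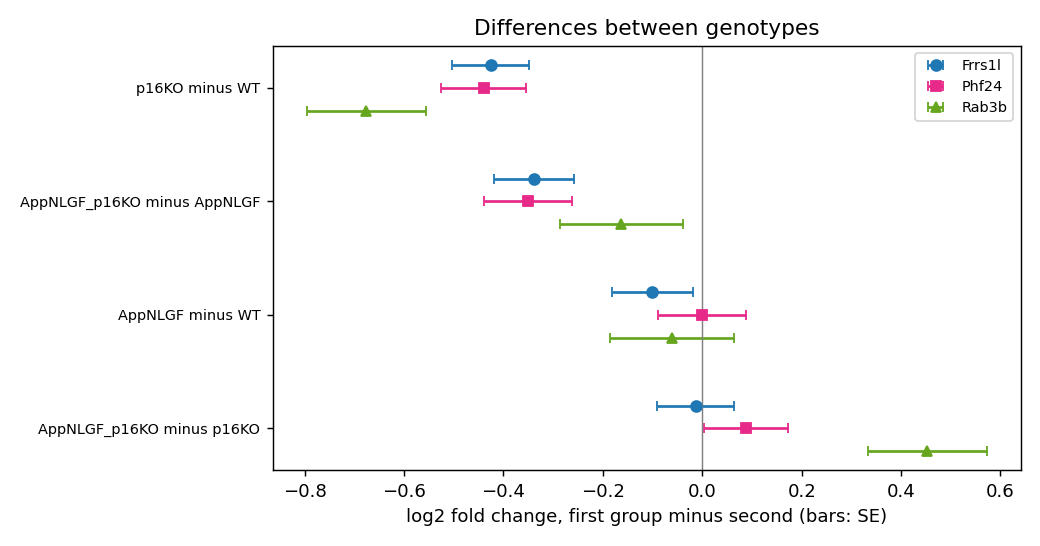
Log2 fold changes (x axis, with SE bars) of the 3 genes in 4 comparisons of genotypes (rows). The p16KO minus WT row shows the values by which the genes were chosen, Frrs1l and Phf24 lie at -0.34 and -0.35 for AppNLGF_p16KO minus AppNLGF, and Rab3b lies at 0.45 for AppNLGF_p16KO minus p16KO.

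With the App knock-in alone the values of the 3 genes lay close to WT. AppNLGF minus WT was log2 -0.10 ± 0.08 for Frrs1l, 0.00 ± 0.09 for Phf24 and -0.06 ± 0.12 for Rab3b. These values share the WT libraries with the choice of genes and were not tested. Between the groups labelled as lacking p16, AppNLGF_p16KO minus p16KO was log2 -0.01 ± 0.08 for Frrs1l and 0.09 ± 0.08 for Phf24. It was 0.45 ± 0.12 for Rab3b, with 6 of 6 AppNLGF_p16KO libraries above the p16KO mean, and 0.25 ± 0.10 without libraries 21 and 22. The difference between the p16 effects on the App and wild-type backgrounds was log2 0.51 ± 0.17 for Rab3b and 0.09 ± 0.11 and 0.09 ± 0.12 for Frrs1l and Phf24. It holds the comparison that chose the genes and was not tested.

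Frrs1l, Phf24 and Rab3b tended to be lower in libraries with more Alad reads than their genotype's mean. Alad was chosen, and the relation looked for, after the values of libraries 22 and 10 had been seen, so it is a description with no test. With log2 CPM centred on each genotype mean over 23 libraries, Pearson's r with Alad was -0.77 for Frrs1l (Spearman's rho -0.55), -0.71 for Phf24 (rho -0.62) and -0.69 for Rab3b (rho -0.56). Without libraries 22 and 10, the farthest from the median of Alad, r was -0.45, -0.54 and -0.48.

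In the 12 libraries labelled as lacking p16, r was -0.82 for Frrs1l, -0.86 for Phf24 and -0.75 for Rab3b. In the 11 libraries with p16 it was -0.43, 0.06 and -0.14, and the difference was not tested. Within p16KO alone (n = 6) r was -0.83, -0.89 and -0.72. Library 10 had the lowest Alad of p16KO (27.3 CPM) and the highest Frrs1l and Phf24 (484 and 208 CPM). Library 9 had the highest Alad (43.3 CPM) and the lowest Frrs1l (347 CPM). The lowest Phf24 and Rab3b were in library 11 (166 and 28.9 CPM), and the highest Rab3b was in library 12 (45.9 CPM).

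**Figure D3:**
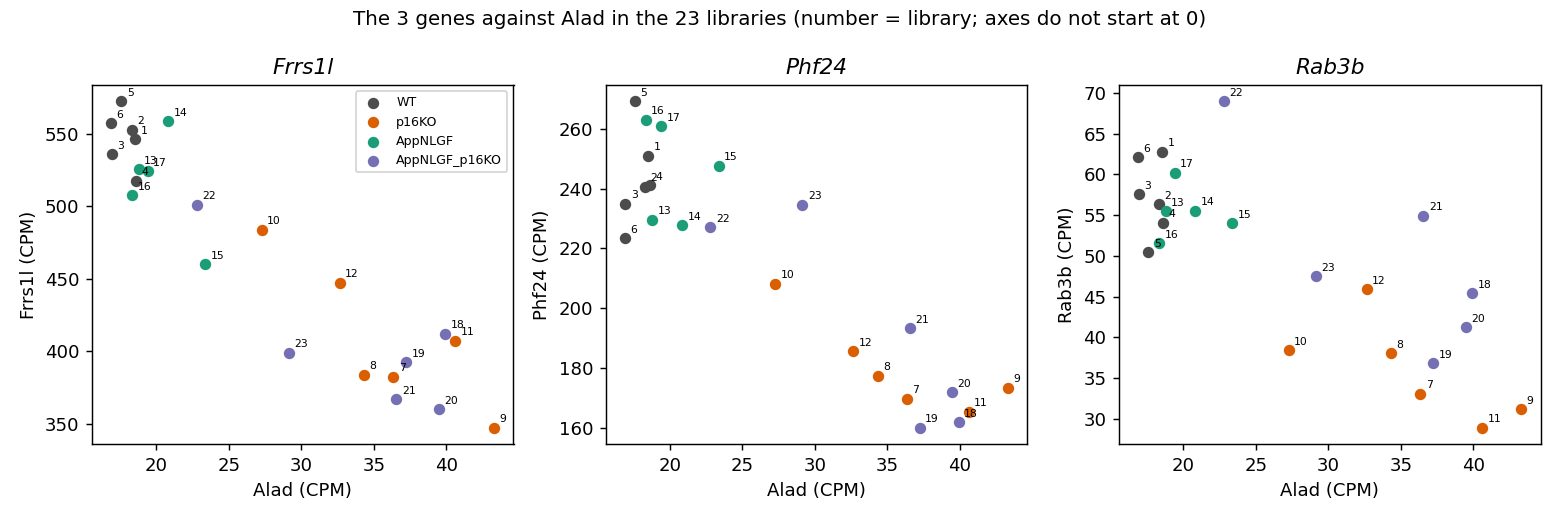
CPM of each of the 3 genes (y axes) against those of Alad (x axes) in the 23 libraries, coloured by genotype and numbered by library. The AppNLGF_p16KO library 22, at 22.8 CPM of Alad, lies beside the WT and AppNLGF libraries, and p16KO library 10, at 27.3 CPM, lies nearest to them within its group.

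The levels of the 3 genes were also compared with each other. With the same centring, r over 23 libraries was 0.57 between Frrs1l and Rab3b (permutation p = 0.0341, adjusted 0.0692) and 0.54 between Phf24 and Rab3b (permutation p = 0.0554, adjusted 0.0692). It was 0.46 between Frrs1l and Phf24 (permutation p = 0.0692, adjusted 0.0692). Spearman's rho was 0.42 (permutation p = 0.0769, adjusted 0.115), 0.48 (permutation p = 0.0509, adjusted 0.115) and 0.30 (permutation p = 0.208, adjusted 0.208). None of the 3 pairs passed after adjustment. Without the 2 libraries farthest from the median of 1 gene of the pair, r was 0.19, 0.39 and 0.28. For the pairs with Rab3b these were libraries 22 and 12, by Rab3b. For Frrs1l and Phf24 they were libraries 23 and 22, by Phf24.

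The genes whose log2 CPM followed each of the 3 most closely over the 23 libraries included several of the same chromosome. For Phf24 they included Epb41l4b (r = 0.88), Tle1 (0.87), Tmod1 (0.86) and Trabd2b (0.85), which all lie on chromosome 4. For Frrs1l they included Zfp110 of chromosome 7 (r = 0.87), Zfp937 of chromosome 2 (0.85), Map3k7 (0.84) and Smim8 (0.83). For Rab3b they included 3 genes of chromosome 17 (Dynlt1b, Hmga1 and Rps6ka2, r from 0.77 to 0.76) and Smim8 (0.76). Dynlt1b was scarce, at 0.11 CPM on average, so its r rests on few reads. Chromosome 4 held 34% of the 50 genes closest to Rab3b, 32% of those closest to Frrs1l and 26% of those closest to Phf24, against 5.71% of genes tested. These r are descriptions over libraries that share genotype differences.

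Neighbouring genes on chromosome 4 had values of both signs. Of the 3 nearest genes tested on each side of Frrs1l, Phf24 and Rab3b, 18 in all, edgeR called 0 in either p16 comparison. The genes tested were called at 0.309% for p16KO minus WT and 0.0309% for AppNLGF_p16KO minus AppNLGF. Epb41l4b, a band 4.1 family gene separated from Frrs1l by 1.58 kb on its 5′ side, was at log2 -0.31 ± 0.08 in p16KO minus WT (edgeR adjusted p = 0.0675) and -0.20 ± 0.08 in AppNLGF_p16KO minus AppNLGF (adjusted p = 0.143). Tmem245, 9.74 kb away on the 3′ side, was at 0.00 ± 0.06 and -0.06 ± 0.07. Beyond Tmem245, Ctnnal1 was at -0.28 ± 0.13 (edgeR adjusted p = 0.286) and -0.41 ± 0.13 (adjusted p = 0.117). Abitram, farther on that side, was at -0.04 ± 0.05 and -0.02 ± 0.05. Around Rab3b, Txndc12, a thioredoxin family gene 16.9 kb away, had values of the opposite sign, log2 0.25 ± 0.08 (edgeR adjusted p = 0.122) and 0.23 ± 0.08 (adjusted p = 0.121). Nrd1, 57.3 kb away on the other side, had values of the same sign as Rab3b. They were log2 -0.16 ± 0.05 (edgeR adjusted p = 0.110) and -0.07 ± 0.05 (adjusted p = 0.379).

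Beside Phf24, the chaperone gene Dnajb5, 5.06 kb away, was at log2 0.07 ± 0.05 and -0.10 ± 0.05, and the ATPase gene Vcp at 0.02 ± 0.05 and 0.09 ± 0.06. The predicted genes Gm21955 and Gm13306 on its other side had the lowest values, log2 -2.08 ± 0.84 (edgeR adjusted p = 0.234) and -1.60 ± 0.82 (adjusted p = 0.345) in p16KO minus WT, at 0.960 and 0.155 CPM on average. Their standard errors were the widest of the 18 neighbours. The genes next to Cdkn2a were Cdkn2b, a kinase inhibitor gene, at log2 0.63 ± 0.23 (edgeR adjusted p = 0.179), and Mtap, of methionine salvage, at -0.32 ± 0.09 (adjusted p = 0.0871) in p16KO minus WT.

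**Figure D4:**
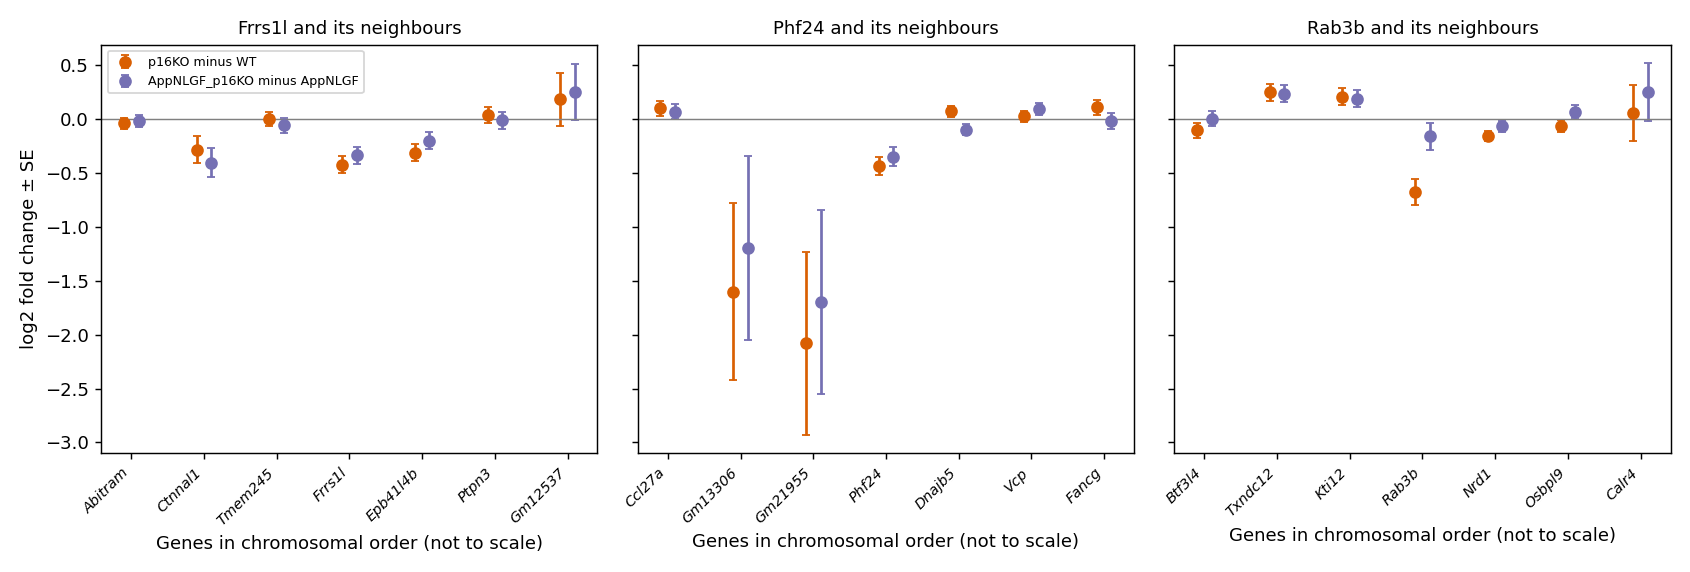
Log2 fold change with SE (y axis) of Frrs1l, Phf24, Rab3b and the 3 nearest genes tested on each side, in chromosomal order (x axis, not to scale), for both p16 comparisons. Frrs1l at -0.43 in p16KO minus WT stands next to Tmem245 at 0.00 and Epb41l4b at -0.31, and Txndc12 beside Rab3b lies at 0.25.

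The partners of FRRS1L in the AMPA receptor system had medians close to those of all genes. In all genes tested, 0.309% were called in p16KO minus WT and 15.8% had an unadjusted p under 0.05, and in AppNLGF_p16KO minus AppNLGF the shares were 0.0309% and 23.5%. At such call shares, 0 calls in a list of this size says little about the list. DESeq2 called 2.42% and 2.23% of all genes. Of 34 genes for receptor subunits, auxiliary subunits and assembly factors, edgeR called 0 in p16KO minus WT, and 4 (11.8%) had an unadjusted p under 0.05. The median log2 change was -0.03, against -0.01 for all genes tested. In AppNLGF_p16KO minus AppNLGF 0 were called, 11 (32.4%) had an unadjusted p under 0.05, and the median was 0.02 against 0.01. DESeq2 called 0 in both comparisons. Gria1, an AMPA receptor subunit gene, was at log2 -0.05 ± 0.08 (edgeR adjusted p = 0.804) and -0.16 ± 0.08 (adjusted p = 0.211). Gria2, which sets calcium permeability, was at -0.22 ± 0.11 (adjusted p = 0.355) and -0.27 ± 0.12 (adjusted p = 0.177). The abundant Nsf, a receptor-binding ATPase gene, and Olfm1, of an associated secreted protein, were at -0.01 ± 0.04 and 0.09 ± 0.05 in p16KO minus WT, and at 0.06 ± 0.04 and 0.02 ± 0.06 in AppNLGF_p16KO minus AppNLGF.

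In the GABA-B pathway, in which PHF24 acts, genes with an unadjusted p under 0.05 made up 15.6% of the list in p16KO minus WT and 43.8% in AppNLGF_p16KO minus AppNLGF, beside 15.8% and 23.5% of all genes. Of 32 genes edgeR called 0 in p16KO minus WT (5 with an unadjusted p under 0.05, median log2 -0.04) and 0 in AppNLGF_p16KO minus AppNLGF (14 with an unadjusted p under 0.05, median 0.04). DESeq2 called 0 in both. Gabbr1, a receptor subunit gene, was at log2 0.03 ± 0.05 (edgeR adjusted p = 0.791) and 0.10 ± 0.05 (adjusted p = 0.224). Gabbr2, its partner on chromosome 4, was at -0.25 ± 0.14 (adjusted p = 0.391) and -0.32 ± 0.15 (adjusted p = 0.203). The adenylyl cyclase gene Adcy1 was at -0.06 ± 0.11 and -0.32 ± 0.12, and the G protein beta subunit gene Gnb1 at 0.09 ± 0.05 and 0.17 ± 0.06, none past the threshold.

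Among the paralogs and partners of RAB3B, 35 genes of the Rab3 cycle and of vesicle release, edgeR called 0 in p16KO minus WT (10 with an unadjusted p under 0.05, median log2 -0.09). It called 0 in AppNLGF_p16KO minus AppNLGF as well (11 with an unadjusted p under 0.05, median -0.01), and DESeq2 called 0 and 1. The unadjusted counts were 28.6% and 31.4% of the list, beside 15.8% and 23.5% of all genes. In p16KO minus WT the 3 paralogs lay between log2 -0.17 and 0.14. Rab3a, the most abundant of them, was at log2 0.14 ± 0.06 (edgeR adjusted p = 0.253) and 0.21 ± 0.06 (adjusted p = 0.112). Rab3c was at -0.17 ± 0.09 (adjusted p = 0.328) and -0.02 ± 0.09 (adjusted p = 0.931), and Rab3d at 0.10 ± 0.07 (adjusted p = 0.509) and -0.02 ± 0.07 (adjusted p = 0.869). The release genes Snap25, Syt1 and Cplx2 were at -0.01 ± 0.05, -0.12 ± 0.06 and -0.08 ± 0.11 in p16KO minus WT. In AppNLGF_p16KO minus AppNLGF they were at 0.09 ± 0.06, -0.05 ± 0.06 and -0.30 ± 0.12, with an edgeR adjusted p of 0.144 for Cplx2.

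A list of 53 other genes of chromosome 4 was drawn up as synaptic, but it also holds genes of wider roles, such as Slc2a1 and Nphp4. It gave 0 calls by edgeR in p16KO minus WT (11 with an unadjusted p under 0.05, 36 negative, median log2 -0.08). In AppNLGF_p16KO minus AppNLGF it also gave 0 (14 with an unadjusted p under 0.05, 31 negative, median -0.04). The unadjusted counts were 20.8% and 26.4% of the list, beside 15.8% and 23.5% of all genes. DESeq2 called 3 and 2, beside 2.42% and 2.23% of all genes. In p16KO minus WT edgeR called 3 with the compared groups alone, 1 without libraries 21 and 22, 4 without libraries 21 and 23, and 2 without p16KO library 8. In those runs it called 1.95%, 1.36%, 2.17% and 1.23% of all genes, against 0.309% in the main run. Gabbr2, Gnb1 and Ajap1 of the GABA-B list and Rims3 and Unc13b of the Rab3 list stand on this list as well. Of its most abundant genes, the neurochondrin gene Ncdn was at log2 0.13 ± 0.08 in p16KO minus WT (edgeR adjusted p = 0.391). Hpca, of the calcium sensor hippocalcin, was at 0.28 ± 0.08 (adjusted p = 0.0895) and the kinesin gene Kif1b at -0.24 ± 0.07 (adjusted p = 0.0959). In AppNLGF_p16KO minus AppNLGF, Ncdn was at 0.02 ± 0.08, Hpca at 0.10 ± 0.08 and Kif1b at -0.17 ± 0.07 (edgeR adjusted p = 0.154). In AppNLGF minus WT edgeR called 0 genes of each of the 4 lists, with 1, 3, 4 and 0 at an unadjusted p under 0.05 where 0.319% of all genes were called and 8.54% had an unadjusted p under 0.05, and DESeq2 also called 0. Without library 23, edgeR called 8, 14, 12 and 19 genes of the 4 lists in AppNLGF_p16KO minus AppNLGF, when 21.5% of all genes were called. Without both libraries 21 and 23 it called 3, 9, 5 and 11, when 11.3% of all genes were called.

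**Figure D5:**
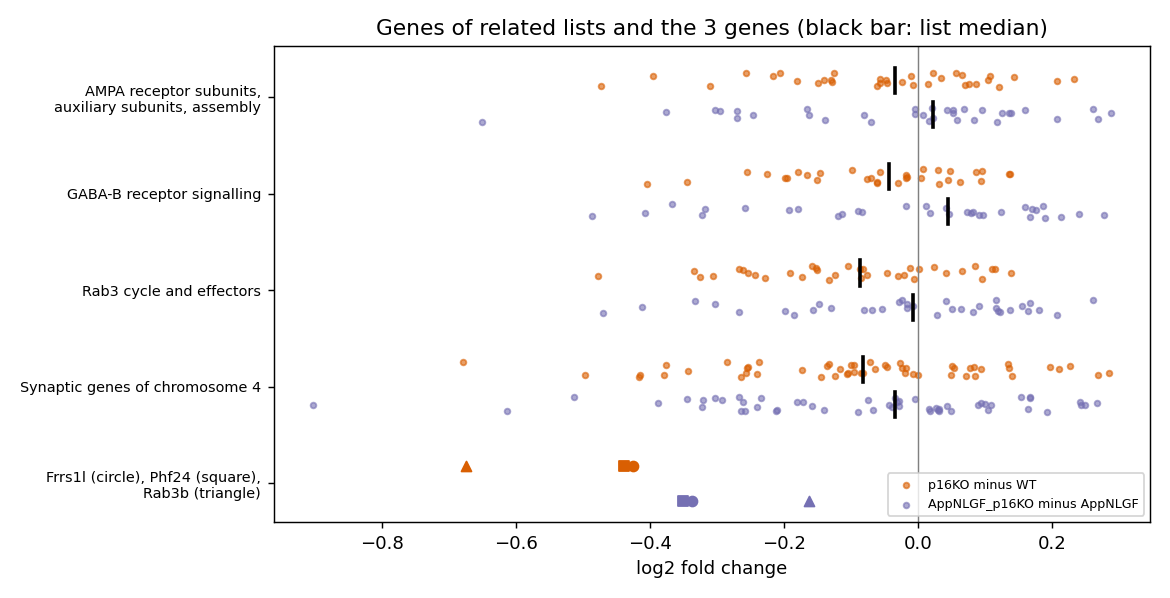
Log2 fold changes (x axis) of the genes of 4 related lists (points, with the list median as a black bar) and of Frrs1l, Phf24 and Rab3b (lowest row) in both p16 comparisons. The list medians lie between -0.09 and 0.04, and the values of the 3 genes in p16KO minus WT lie between -0.68 and -0.43.

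RNA came from whole hippocampi, so fewer cells of a type and less RNA per cell cannot be told apart. Summed pan-neuronal markers differed by less between WT and p16KO medians than Frrs1l, Phf24 or Rab3b did. The 8 pan-neuronal markers had a summed level of 7391 to 8260 CPM in WT (median 7723) and 6990 to 7598 CPM in p16KO (median 7374). AppNLGF libraries had 7110 to 8178 CPM and AppNLGF_p16KO libraries 7336 to 8061 CPM. The 9 interneuron markers had medians of 1196 CPM in WT and 1245 CPM in p16KO, and the 5 excitatory markers 6624 and 6849 CPM. Within AppNLGF_p16KO, library 22 had the highest interneuron sum of all libraries (1418 CPM). Library 21 had the highest oligodendrocyte sum of all (8069 CPM) and the lowest excitatory and dentate granule sums (5904 and 373 CPM). Defining markers of dentate granule, CA1 and CA2 to CA3 cells were detected in all groups, as the hippocampal label has it. edgeR called 0 markers of the 15 lists in either p16 comparison. As only 0.309% and 0.0309% of all genes were called, this says little about cell composition. Choroid plexus markers, from tissue next to the hippocampus, ranged widely within groups, from 122 to 3221 CPM in WT and 598 to 5669 CPM in p16KO. The part of cell composition in the levels of the 3 genes was not tested.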

How the data were processed

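Poly-A RNA of 23 mouse hippocampi was sequenced as 50-base single reads. The authors deposited raw counts per gene. Ribosomal reads were removed, the rest aligned to GRCm38 with STAR 2.7.10b, and those aligned once and within a single gene of Ensembl release 102 counted, per the labels' design text (the submitters' processing notes also name mm39). The authors also deposited a median transcript length per gene, per the file headers, which was not used. Of 37060 genes shared with GENCODE M21, 36795 had identical coordinates, and all count columns were used. Without molecular identifiers, depth statements cover counting error only.

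CPM are counts per 1000000 of a library's total counts, from 40693561 to 61178839. edgeR 4.0.16 in R 4.3.3 (filterByExpr, TMM, robust quasi-likelihood F test, 1 model of 4 genotypes) tested 19423 genes, two-sided, with Benjamini-Hochberg adjustment over all of them and a threshold of 0.05. The procedure was tested on simulated data. Correlations used 100000 resamples. P-values measure the spread between mice, each given 1 library. Alternatives were DESeq2 1.42.0, RLE factors, 2 count filters, non-robust dispersion, compared groups alone, a Xist covariate and omission of libraries. Omission of libraries 21 and 23 was added after seeing the data. The genes and lists were chosen with earlier results of these data known. Beside the 3 genes, the rule named the 5 genes most like each, 3 neighbours on each side, close relatives, and the most abundant or called genes of each list. One gene that the rule named is not reported here. Genes outside it (Cfap74, Oprd1, Alad, Hdhd3) were chosen after their values were seen.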

Additional observations from a re-analysis of the deposited data

Results flagged for a closer look

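Frrs1l was at 501 CPM in AppNLGF_p16KO library 22, which stood apart from the other 5 libraries of its group. The gap to the next library made up 0.632 of the range of the group, just past Dixon's 95% limit for 6 samples. Of 12 combinations of gene and genotype examined in this way, 1 was beyond its limit, and chance gives about 1 in 20. The same library had the highest Rab3b of all 23 (69.0 CPM) and the lowest Alad of its group (22.8 CPM).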

How the results depend on the processing

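No paired analysis was possible because the labels give no litter or other pairing of the mice. For AppNLGF_p16KO minus AppNLGF, the log2 change of Frrs1l was -0.34 (edgeR adjusted p = 0.112). It passed the threshold with DESeq2 (-0.35), without libraries 21 and 22 (-0.40) and without libraries 21 and 23 (-0.31), and ranged from -0.41 to -0.31 without 1 library (adjusted p 0.0104 to 0.317). Phf24, at -0.35, passed with DESeq2 (-0.36) and without libraries 21 and 23 (-0.45), and ranged from -0.42 to -0.30 without 1 library (adjusted p 0.00512 to 0.317). Rab3b kept its negative sign in every alternative run and passed in none (-0.29 to -0.09 without 1 library). The count of genes called was 6. It was 434 with DESeq2, 3 under a filter of 15 reads in 90% of libraries, 17 unfiltered, 0 with the compared groups alone, 15 without libraries 21 and 22, 2216 without libraries 21 and 23, and 2 to 4155 without 1 library. Frrs1l and Phf24 were at an adjusted p of 0.263 with the compared groups alone. For p16KO minus WT the count was 60. It was 470 with DESeq2, 356 with the compared groups alone, 267 without libraries 21 and 22, 424 without libraries 21 and 23, and 7 to 239 without 1 library. For AppNLGF minus WT it was 62, and 153 with DESeq2 and 47 to 65 without 1 library. The cause of these shifts was not tested. Depth did not limit the 3 genes, which had at least 1504 reads in each library.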

Other observations

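Tmod1, Tle1 and Trabd2b of chromosome 4 were also lower on average in AppNLGF_p16KO than in AppNLGF, and none passed edgeR's test. The values of Tmod1 and Tle1 were close to those of Frrs1l and Phf24. Tmod1, of the actin-capping protein tropomodulin, was at log2 -0.39 ± 0.11 in AppNLGF_p16KO minus AppNLGF (edgeR adjusted p = 0.112), lower than the AppNLGF mean in 5 of 6 libraries. Tle1, a transcriptional corepressor gene, was at log2 -0.37 ± 0.11 (adjusted p = 0.112, 5 of 6). Trabd2b, of a metalloprotease that acts on Wnt proteins, was scarce, at 2.65 CPM in AppNLGF and 1.64 CPM in AppNLGF_p16KO (log2 -0.68 ± 0.20, edgeR adjusted p = 0.112, 6 of 6). In p16KO minus WT these genes were at log2 -0.34 ± 0.11, -0.30 ± 0.10 and -0.84 ± 0.19. They were chosen for their likeness to Phf24 over all 23 libraries, so these values are descriptions.

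Hdhd3, the neighbour of Alad, had the same order of AppNLGF_p16KO libraries at its low end. It was at 6.05 CPM in library 22 and 6.89 CPM in library 23, against 8.96 to 11.4 CPM in libraries 18 to 21 and 3.85 to 5.11 CPM in AppNLGF.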
